A study of Oryza sativa Japonica Group with 31 samples.

Results

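The 9 cellulose synthase catalytic subunit genes of rice, CesA1 to CesA9, were described in leaves of seedlings with and without cold. They were taken by a fixed list of 9 locus identifiers from a table of 55801 loci, and all 9 were listed. The list was chosen with earlier results of these data known. The seedlings were Nipponbare, the japonica cultivar whose genome serves as the rice reference, with no transgene or mutation named in the labels. They grew in liquid culture with 12 h of light at 28 °C and nights at 22 °C. From day 13 the cold group was held at 4 °C for 24 h, while the control group stayed under the growth conditions. Each treatment had 2 RNA-seq libraries, called biological replicates in the labels, out of 31 libraries in a series on R-loops and the transcription of cold-responsive genes. The labels give leaf as the tissue, but their protocol speaks of seedlings being collected, and leaf markers could not be checked because the table holds no gene names.

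Cellulose is made at the plasma membrane by rosette-shaped complexes of CesA proteins, which join glucose from UDP-glucose into chains that bundle into microfibrils. One set of subunits serves the thin primary wall of growing cells, and another serves the thick secondary wall laid down when cells of the vascular and mechanical tissues stop growing. In rice, CesA4, CesA7 and CesA9 form the secondary wall set, and loss of any of them gives the brittle culm phenotype. CesA1, CesA3 and CesA8 are regarded as the main primary wall subunits, and CesA2, CesA5 and CesA6 are further members of primary wall type.

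The deposited table holds 1 FPKM value per treatment, that is, fragments scaled by the length of the locus and by the mapped fragments of the library. Neither a replicate error nor a p-value could be given, and the number of reads behind a value is unknown. FPKM is scaled by length, so levels of different genes can be set side by side within a column. The summed FPKM of the table was 584870 in control and 554475 in cold. The scale between the columns is a choice, so differences were also taken after rescaling to the same sum, after median-of-ratios scaling and after quantile normalization. Leaf is a mixture of cell types, so fewer cells of a type and less RNA per cell cannot be told apart.

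All 9 genes were expressed in both treatments, and the order of their levels was nearly the same. The levels spanned 10.7-fold in control and 23.5-fold in cold, with CesA1 at the top and CesA2 at the bottom of both columns. In control the order was CesA1, CesA8, CesA3, CesA7, CesA4, CesA9, CesA6, CesA5 and CesA2. In cold, the places of CesA7 and CesA9 were exchanged and the other 7 genes kept theirs. Without replicates, which neighbours in this order differ beyond their spread is not known.

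Among the primary wall genes, the 3 main subunits were the most abundant CesA transcripts and were listed higher in cold. CesA1 (LOC_Os05g08370, chromosome 5) stood at 199 FPKM in control leaf and 268 FPKM after cold, which gives a cold to control ratio of 1.34. It held rank 330 of all loci in control and rank 235 in cold. CesA3 (LOC_Os07g24190, chromosome 7) stood at 128 FPKM in control leaf and 150.2 FPKM after cold, which gives a cold to control ratio of 1.18. CesA1 and CesA3 thus showed the largest upward differences of the family, and both kept their direction under all 3 scalings. CesA8 (LOC_Os07g10770, chromosome 7) stood at 186 FPKM in control leaf and 189 FPKM after cold, which gives a cold to control ratio of 1.02. The 2 values of CesA8 were nearly equal, and on the log2(FPKM + 1) scale its difference lay between 0.016 after quantile normalization and 0.37 after median-of-ratios scaling.

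The other primary wall genes were weaker and were listed lower in cold, except that CesA5 and CesA6 were slightly higher after median-of-ratios scaling. CesA6 (LOC_Os07g14850, chromosome 7) stood at 56.6 FPKM in control leaf and 45.99 FPKM after cold, so that it was 1.23-fold lower. CesA5 (LOC_Os03g62090, chromosome 3) stood at 40.9 FPKM in control leaf and 34.6 FPKM after cold, so that it was 1.18-fold lower. CesA5 and CesA6 differed by almost the same proportion, so the ratio of CesA6 to CesA5 was 1.38 in control and 1.33 in cold. CesA2 (LOC_Os03g59340, chromosome 3), the weakest member, stood at 18.7 FPKM in control leaf and 11.4 FPKM after cold, so that it was 1.63-fold lower. CesA2 went from rank 6139 to rank 8615 among all loci and stayed lower in cold under all 3 scalings.

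The secondary wall genes lay close together in control and farther apart in cold. CesA7 (LOC_Os10g32980, chromosome 10) stood at 86.3 FPKM in control leaf and 47.1 FPKM after cold, so that it was 1.83-fold lower. This was the largest difference of any of the 9 genes as deposited, and CesA7 went from rank 1028 to rank 2339 among all loci. CesA4 (LOC_Os01g54620, chromosome 1) stood at 76.8 FPKM in control leaf and 57.5 FPKM after cold, so that it was 1.33-fold lower. CesA9 (LOC_Os09g25490, chromosome 9) stood at 70.1 FPKM in control leaf and 68.2 FPKM after cold, so that it was 1.03-fold lower. CesA4 and CesA7 were lower in cold under all 3 scalings. CesA9 was higher after rescaling to the same sum (0.038) and after median-of-ratios scaling (0.30), so its direction turned with the scale.

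**Figure D1:**
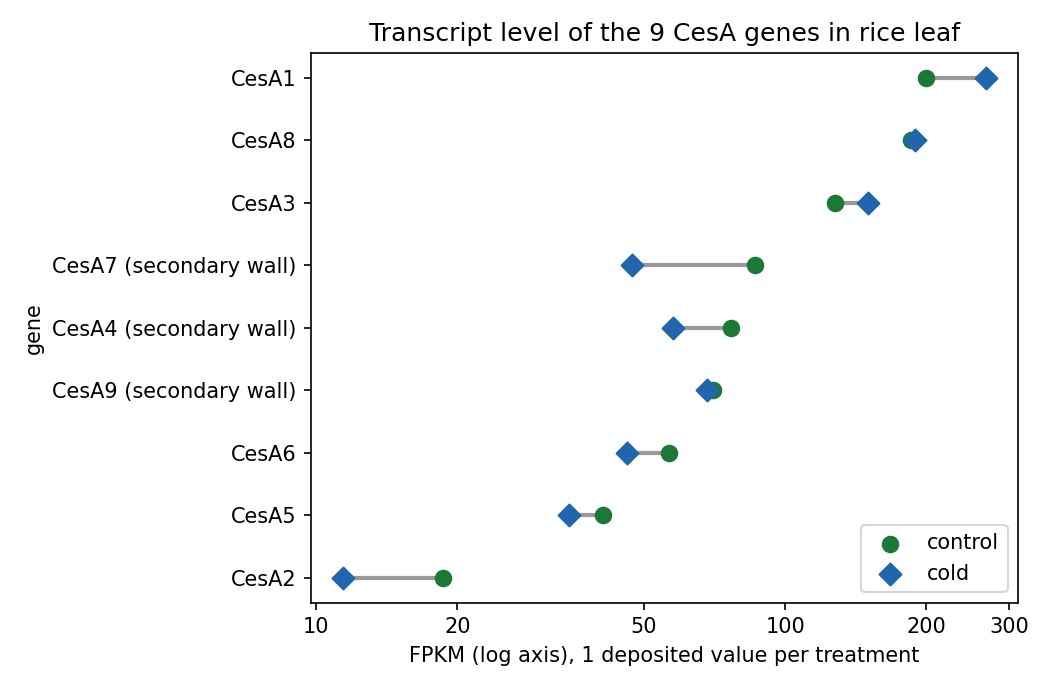
FPKM of each CesA gene in control (circles) and cold (diamonds) on a log axis, ordered by control level, with 1 deposited value per treatment and no error. CesA1 and CesA3 lie to the right in cold, CesA8 and CesA9 hardly differ, and CesA7, at 86.3 and 47.1 FPKM, and CesA2, at 18.7 and 11.4 FPKM, show the widest gaps.

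No member reached a 2-fold difference in either direction. A 2-fold difference on the log2(FPKM + 1) scale, in which 1 is added to each value, was the limit, and loci were compared if their mean reached 1 FPKM. All 9 members passed that floor, with means between 15.04 and 234 FPKM. Of the 20876 loci that passed it, 12.5% passed the limit on the higher side in cold and 19.2% on the lower side, against 0 and 0 of 9 CesA genes. Among the 7311 loci whose mean lay within the range of the member means, the shares were 17.9% and 17.4%. With only 9 genes, a count of 0 beside such shares is not read as a result about the family. At a smaller limit of 1.5-fold, 0 members were higher and 2 were lower, CesA2 and CesA7. After median-of-ratios scaling neither was past it and CesA1 was, on the higher side, so this count turned with the scale. With a pseudocount of 5, CesA7 alone was past it. The same limit was passed by 20.5% of all loci compared on the higher side and 35.6% on the lower side, and by 27.5% and 30.4% of the loci in the members' range.

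The differences of the 9 genes lay around that of the whole table. On the log2(FPKM + 1) scale their median was −0.23, with CesA7 lowest at −0.86 and CesA1 highest at 0.42. The median of all loci compared was −0.27, with quartiles of −0.84 and 0.41, and that of the 7311 loci in the members' range was −0.077. As deposited, 3 members were higher and 6 lower in cold. Of all loci compared, 38.8% were higher and 61.2% lower. Of the 7311 loci in the members' range, 46.8% were higher and 53.2% lower. With only 9 genes, the members' counts are not read as a result about the family. After median-of-ratios scaling 6 members were higher and 3 lower, because CesA5 (0.10), CesA6 (0.045) and CesA9 (0.30) changed sign. That scaling moved the median of all loci compared by 0.30, quantile normalization moved it by 0.17 and the same sum by 0.047. The floor was applied anew to the scaled values, so 20832 loci were compared after median-of-ratios scaling and 22666 after the same sum. The weight of the pseudocount changed as well. The factors between the columns alone were 0.35 for median-of-ratios scaling and 0.077 for the same sum, as log2. Set against the median of all loci compared, CesA1 lay between 0.47 and 0.74 above it and CesA3 between 0.32 and 0.55 above it over the deposited scale and the 3 others. CesA7 lay between −0.81 and −0.55 and CesA2 between −0.49 and −0.37, below the median in each case. CesA5 and CesA6 lay on either side of it, depending on the scale.

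**Figure D2:**
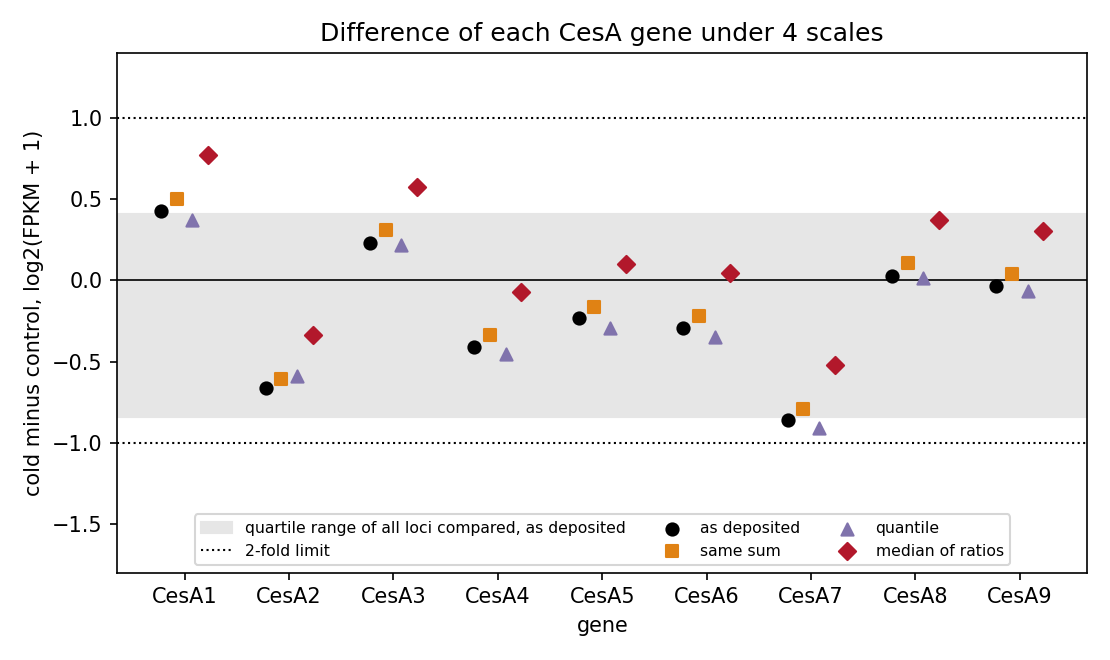
Difference between cold and control on the log2(FPKM + 1) scale for each gene under the deposited scale and 3 others, with the 2-fold limits as dotted lines and the range between the quartiles of all loci compared, from −0.84 to 0.41, as a grey band. CesA7 lies nearest the lower limit without passing it, CesA1 lies highest, and CesA5, CesA6 and CesA9 lie on both sides of 0.

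As deposited, the total CesA level differed little, while CesA1 and CesA3 made up more of it in cold. The 9 genes summed to 862 FPKM in control leaf and 872 FPKM after cold, a ratio of 1.01, which was 0.988 after quantile normalization and 1.29 after median-of-ratios scaling. The secondary wall genes summed to 233 FPKM in control leaf and 173 FPKM after cold, 1.35-fold lower and still 1.06-fold lower after median-of-ratios scaling. The 6 genes of primary wall type summed to 629 FPKM in control leaf and 699 FPKM after cold, a ratio of 1.11, and were higher under each scaling tried. Of these, CesA1, CesA3 and CesA8 together were at 513 FPKM in control leaf and 607 FPKM after cold. CesA2, CesA5 and CesA6 were at 116 FPKM in control leaf and 92.0 FPKM after cold, but after median-of-ratios scaling their ratio of cold to control was 1.01. The split of the primary wall genes into these sets was used with their values known.

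Shares of the summed CesA level do not depend on a factor between the columns. CesA4, CesA7 and CesA9 held 27.05% of the summed CesA FPKM in control and 19.8% in cold. Of these, CesA7 differed most, with 10.01% in control and 5.40% in cold. CesA4 held 8.91% and 6.60%, and CesA9 held 8.13% and 7.82%. The largest difference in share was that of CesA1, with 23.1% in control and 30.7% in cold. CesA3 held 14.8% and 17.2%, and CesA8 stayed near its share at 21.5% and 21.7%. The smallest share was that of CesA2, at 2.16% in control and 1.31% in cold.

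**Figure D3:**
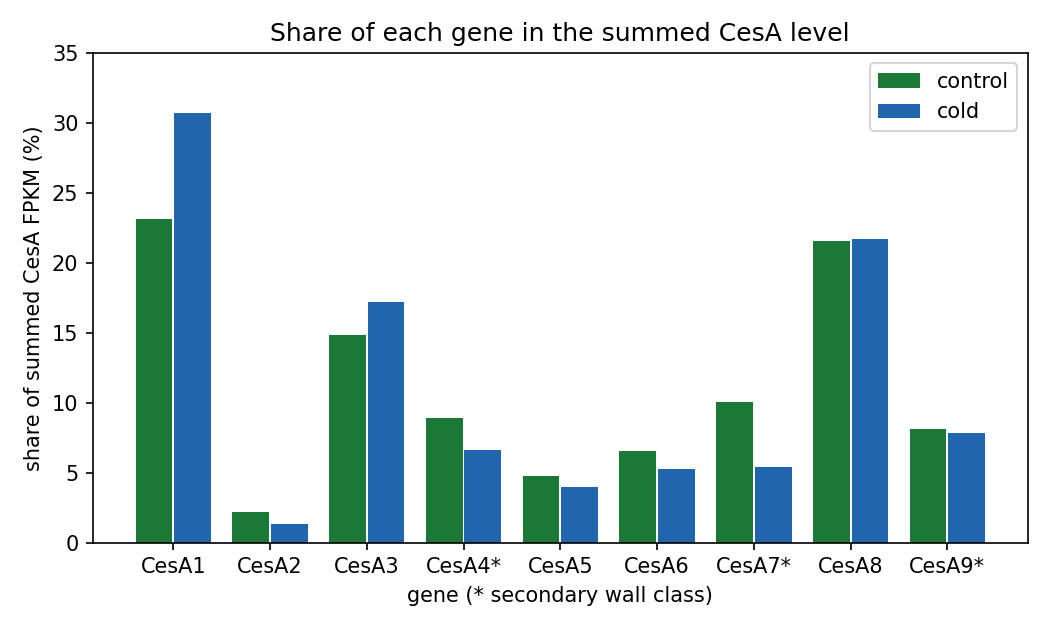
Share of each gene in the summed FPKM of the 9 CesA genes, in percent, in control (green) and cold (blue), with the secondary wall genes marked by an asterisk. CesA1 has 23.1% of the sum in control and 30.7% in cold, CesA7 has 10.01% and 5.40%, and CesA8 and CesA9 keep nearly the same share.

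Ratios between genes of the same column are likewise free of a factor between the columns. Among the 36 pairs of CesA genes, the median change of the FPKM ratio was 1.38-fold, and 13 pairs changed by at least 1.5-fold. For 3 pairs the ratio changed by at least 2-fold. The pairs reuse the same few genes, so they are not independent of each other. Pairs of other loci were not compared, so these counts are not read as a result about the family. The ratio of CesA1 to CesA7 was 2.31 in control and 5.69 in cold, and that of CesA3 to CesA7 was 1.48 in control and 3.19 in cold. The ratio of CesA1 to CesA2 was 10.7 in control and 23.5 in cold. Each of these 3 pairs thus set CesA1 or CesA3 against CesA7 or CesA2.

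Within the secondary wall set the order of the genes was turned around. In control CesA7 was highest and CesA9 lowest, and the highest was 1.23-fold above the lowest. In cold CesA9 was highest and CesA7 lowest, 1.45-fold apart. The ratio of CesA7 to CesA9 was 1.23 in control and 0.690 in cold, that of CesA7 to CesA4 was 1.12 and 0.818, and that of CesA4 to CesA9 was 1.096 and 0.843. These were the 3 pairs of the 36 whose order turned. How often the order turns among other loci of similar level was not computed. None of the ratios among the main primary wall subunits crossed 1. The ratio of CesA1 to CesA3 was 1.56 in control and 1.78 in cold, and that of CesA1 to CesA8 was 1.07 in control and 1.42 in cold. The ratio of CesA8 to CesA3 was 1.45 in control and 1.26 in cold.

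**Figure D4:**
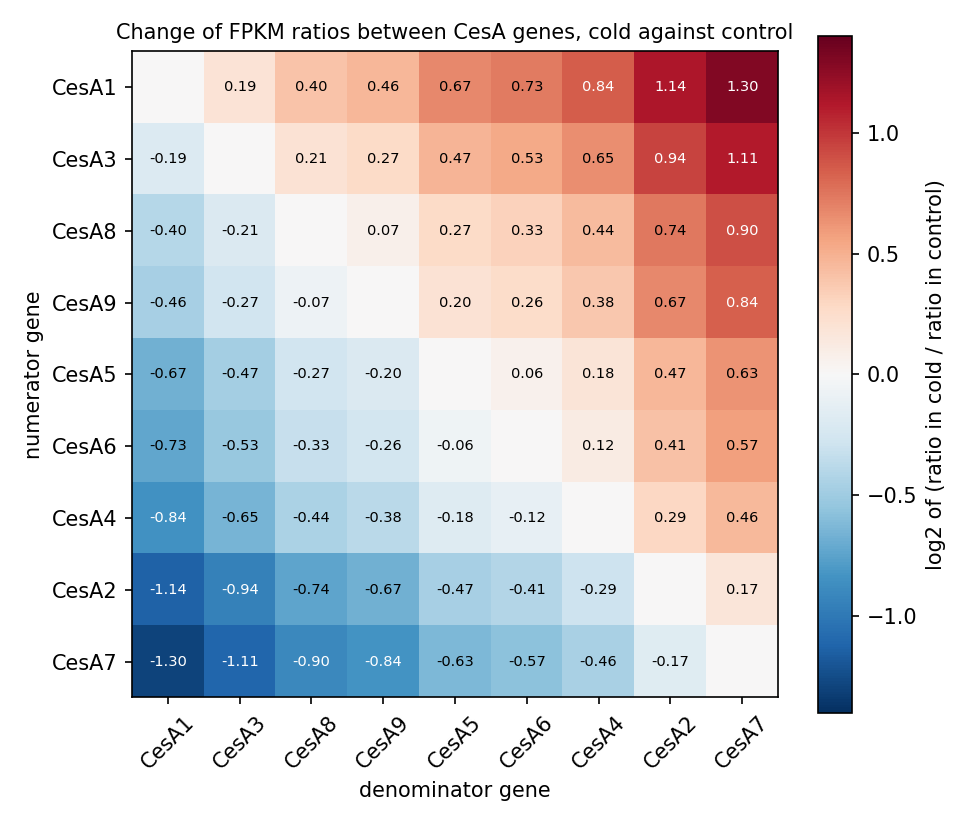
Change of the FPKM ratio of each pair of CesA genes between cold and control, as log2, with the numerator gene in rows, the denominator gene in columns and genes ordered by their ratio of cold to control. The largest values, 1.30 for CesA1 over CesA7, 1.14 for CesA1 over CesA2 and 1.11 for CesA3 over CesA7, lie in the upper right, and CesA8 over CesA9, at 0.066, is near 0.

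Members with higher levels tended to have higher ratios of cold to control. Over the 9 genes, Spearman's rho between the mean level and the ratio was 0.78, and between the control level and the ratio it was 0.62. Over the 7311 loci in the members' range these values were 0.040 and −0.54. That range was set on the mean of both columns, which by itself ties a higher control level to a lower ratio. The −0.54 is therefore not read against the 0.62 of the members. Over 20863 loci compared without that range, the values were 0.18 for the mean level and −0.12 for the control level. These values describe genes of the same columns, which are not independent samples, and a mean or a control level shares its values with the ratio. Reads that match more than 1 member could blur the members' values, and the sources used here do not say how such reads were counted.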

How the data were processed

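The authors deposited FPKM values in 1 column per treatment. The sources used here do not say how the libraries of a treatment were combined into its column. They also do not give the genome build, the annotation, the strand setting and how reads matching several places were counted. The aligner HISAT2 2.1.0, the counter featureCounts 1.6.4 and the trimmers Trimmomatic 0.39 and Trim Galore 0.4.3 are named, with Bowtie, SAMtools and FastQC, without the assay each served, per the submitters' processing notes. The other 27 libraries, of DRIP-seq, ChIP-seq and DNase-seq, were not used here.

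The limma test planned for library columns was not run, because there are none. Differences are of log2(FPKM + 1), with a pseudocount of 1, over the 20876 loci whose mean reached 1 FPKM. Ratios are of FPKM without a pseudocount. Members and lists were chosen with earlier results of these data known, and all 9 members are named by rule. The names CesA1 to CesA9 came with the list of identifiers. The RefSeq table of 39387 genes (assembly ASM3414082v1) holds none of the 9 identifiers, but lists all 9 names on the chromosomes that the identifiers carry. It annotates 0 of 9 other loci of the cellulose pathway looked up by identifier, which were therefore left out, and it ties the 26 genes it names as cellulose synthase-like to no identifier. Protein and promoter sequences were not used here, and no coordinates are given. Alternatives were pseudocounts of 0.1 and 5 and none, no floor, a floor of 5 FPKM and 3 scalings. The functions were tested on a copy of the deposited control values in which known changes and a known scale were planted. Values were computed with pandas 2.3.3, numpy 2.4.6 and scipy 1.17.1 under Python 3.11.15 and drawn with matplotlib 3.10.9.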

Additional observations from a re-analysis of the deposited data

How the results depend on the processing

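The limits for a value to count as moved were 0.1 on the log2 scale, 2 percentage points for shares and 1.5-fold for counts. Of 104 values recomputed, 87 stayed within them and 17 moved. Part of the 87 could not move. Shares of the summed FPKM are the same under any pseudocount or factor between the columns. The counts of members past 2-fold cannot change with the floor, which all 9 members pass. The median of the 9 genes was the CesA5 value in each setting, so that value was counted again. The median difference of the 9 genes, −0.23 as deposited, was 0.10 after median-of-ratios scaling, which moved all 9 genes. The counts of members past 2-fold stayed at 0 in each direction under every alternative run. Shares taken from summed log2(FPKM + 1) put CesA4, CesA7 and CesA9 at 33.4% in control and 32.1% in cold, against 27.05% and 19.8% of the summed FPKM. A log scale compresses the differences between levels. The 1.5-fold limit, the range of member means, the relation with level and the neighbouring loci were added after seeing the data. The ratios of all pairs of members were not planned in that form. The plan named ratios of each member to the mean of its class. No paired analysis was possible because the table gives a single value per treatment. Leaving out a replicate was not run for the same reason. Depth is unknown, and with it the counting error of every value.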

Other observations

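The loci next to the members in the order of the identifiers mostly had low values, as did most loci of the table. Of 18 such neighbours, 12 had a mean under 1 FPKM, and 5 of them were listed at 0 in both columns. Both neighbours of CesA3 were listed at 0 in control and cold. Of all 55801 loci, 34925 had a mean under 1 FPKM, so the count of 12 is not read as a result about the neighbours. The share of all loci at 0 in both columns was not computed. The named neighbours were chosen for mention after their values had been seen. LOC_Os10g32970, just before CesA7, stood at 37.7 FPKM in control leaf and 67.2 FPKM after cold, the highest value of any neighbour. LOC_Os10g32990, just after it, stood at 4.70 FPKM in control leaf and 0.710 FPKM after cold. The lower value of CesA7 in cold thus lay between a higher and a lower one. On the log2(FPKM + 1) scale, of the 6 neighbours with a mean of at least 1 FPKM, 1 was at least 2-fold lower, 0 were at least 2-fold higher, and 1 differed in the same direction as its member. LOC_Os09g25500, just after CesA9, lay just under that limit, at 10.3 FPKM in control leaf and 21.4 FPKM after cold, and its FPKM ratio without a pseudocount was 2.08. The gene functions of these neighbours are not named in the sources used here.

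Few loci shared the levels of the abundant members. Loci within 10% of the gene in both columns numbered 7 for CesA1, 9 for CesA8 and 10 for CesA3, and 124 for CesA2. Such counts largely restate how many loci lie at a level, as CesA1 held rank 330 in control and CesA2 rank 6139. For the secondary wall genes they numbered 36 for CesA7, 40 for CesA4 and 34 for CesA9.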
